A study of Mus musculus with 5 samples.

Results

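The genes described are those with symbols of cytosolic ribosomal proteins in the deposited table. They are every Rpl and Rps gene with a number and, where present, a short suffix, together with Rplp0, Rplp1, Rplp2 and Rpsa. Of 24594 genes in the table, 84 symbols matched, and 81 of these had a mean of at least 10 normalised reads over the 5 libraries and were tested. They comprised 45 genes of the large subunit, 30 of the small subunit and 6 paralogues (Rpl3l, Rpl7l1, Rpl22l1, Rpl32l, Rps4l and Rps27l). Of these paralogues, Rps4l and Rpl32l are annotated as pseudogenes in at least 1 source, as given below. The 3 symbols left out were Rpl26, with a mean of 2.26 normalised reads, and Rpl10l and Rpl39l, which were at 0 reads in all 5 libraries. The tested members with the lowest means, both well above the limit, were Rpl3l, at 159, and Rps27, at 165.

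The cytosolic ribosome reads messenger RNA in its small subunit and joins amino acids in its large subunit, and each subunit holds ribosomal RNA and a fixed set of proteins. Most ribosomal protein messenger RNAs begin with a run of pyrimidines at the cap, the terminal oligopyrimidine motif, through which their translation follows mTOR signalling. In the developing retina, dividing progenitor cells are known for active ribosome production. Some ribosomal proteins have a paralogue that replaces or accompanies them in certain tissues, such as Rpl3l in striated muscle and Rpl10l and Rpl39l in the male germ line.

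RNA was sequenced from mouse retinal cells that had received a plasmid by electroporation in vivo at postnatal day 0. The 2 control libraries came from pups given CAG-GFP and the 3 libraries labelled Zfp292-OE from pups given CAG-Zfp292. The CAG promoter is active in most cell types, so the promoter by itself did not restrict expression to a given kind of cell. Which kinds of cells carried the plasmid was not tested. Retinas were collected 4 days later and dissociated, and GFP+ cells, called RPCs (retinal progenitor cells) in the labels, were sorted. No strain, sex or added allele is given in the labels. Whether any libraries came from different animals is also not stated there, so p-values cover just the variation among these 5 libraries, which may be technical.

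Reads assigned to genes ranged from 103096224 to 137683716 per library. Normalised reads under Zfp292 itself numbered 13288 and 14756 for the controls, and 14631, 13197 and 15534 for libraries labelled Zfp292-OE (log2 fold change 0.04, adjusted p = 0.87, limma), so every direction below rests on the labels. All 14 progenitor markers were detected in every library. Their summed normalised reads were 261747 to 294083 in the controls and 364555 to 413824 in the libraries labelled Zfp292-OE, and 5 rose and 1 fell. Summed rod photoreceptor markers were at 1436790 to 1711250 in the controls and 472106 to 562448 in the libraries labelled Zfp292-OE, and 17 of 19 fell. Bipolar cell markers summed to 148542 to 197215 against 124080 to 210795, with 9 of 14 lower past the threshold and a median log2 fold change of -2.37. Müller glia markers summed to 860240 to 1012540 against 486410 to 609663, with 5 of 12 lower and 1 higher past the threshold and a median of -0.57. All 18 mitotic markers rose, with sums of 53733 to 65048 against 239635 to 490588, and 17 of 18 DNA replication markers rose, with sums of 81668 to 90090 against 243596 to 390401. Microglial markers summed to 6770 to 19936 in the controls and 3175 to 11201 in the libraries labelled Zfp292-OE, with 0 of 14 past the threshold in limma, edgeR or DESeq2 and 1 at an unadjusted p below 0.05. Endothelial markers went both ways, with sums of 42871 to 51748 against 39475 to 48114. Of the 8 tested, 2 rose and 0 fell in limma, edgeR and DESeq2, and 2 were lower at an unadjusted p below 0.05 in limma. The fitted change was above 0 in 4 and below 0 in 4, with a median of 0.12. Of the 3 erythroid markers tested 0 passed in limma, edgeR or DESeq2 and 0 were at an unadjusted p below 0.05. Among the microglial markers Csf1r and Tmem119 were at 0 in at least 1 library. The part of these shifts in the results below was not tested, and in bulk samples fewer cells of a type and less RNA per cell cannot be told apart.

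The ribosomal protein genes lay higher in the libraries labelled Zfp292-OE as a broad, small shift, with Rpsa far above the rest. Of the 81 genes, 13 rose and 0 fell at an adjusted p below 0.05 (limma), which is 16% against a background of 10% of all 16316 genes tested that rose and 7.38% that fell. The median log2 fold change of the 81 genes was 0.34 (quartiles 0.20 and 0.45), against -0.06 over all genes tested. The fitted change was above 0 in 70 of the 81, against 46.7% of all genes. At an unadjusted p below 0.05, 29 members were higher and 1, Rpl3l, was lower (30 of 81, against 32.8% of all genes in either direction). In 39 of the 81 every library labelled Zfp292-OE lay above both controls, against 24.3% of all genes, and in 2, Rpl3l and Rpl34, every one lay below, against 25.7%. edgeR on the recovered whole reads called 7 of the 81 higher and 0 lower, and DESeq2 called 23 higher and 0 lower. Over all genes edgeR called 8.28% higher and 7.78% lower, and DESeq2 14.2% higher and 11.2% lower.

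The control libraries differed from each other in these genes by as much, in the median, as the groups did. Control library 2 lay above control library 1 in 76 of the 81 genes, with a median log2 difference of 0.35, whereas over all genes tested it lay above in 49.6% and the median difference was 0.00. The exceptions were Rpl7l1, Rpl30, Rpl3l, Rps12 and Rps4l. Relative to the mean of the controls, the median of the 81 genes on the log2 scale was -0.18 in control library 1 and 0.18 in control library 2. Among the libraries labelled Zfp292-OE the same median was 0.44, 0.29 and 0.25 (libraries 1 to 3), so all 3 lay above both controls, library 3 by the least. Without control library 1 the median log2 fold change was 0.11, and without control library 2 it was 0.51. In either case 1 control library was left and no call was kept in limma, so just the effect size is given here.

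**Figure D1:**
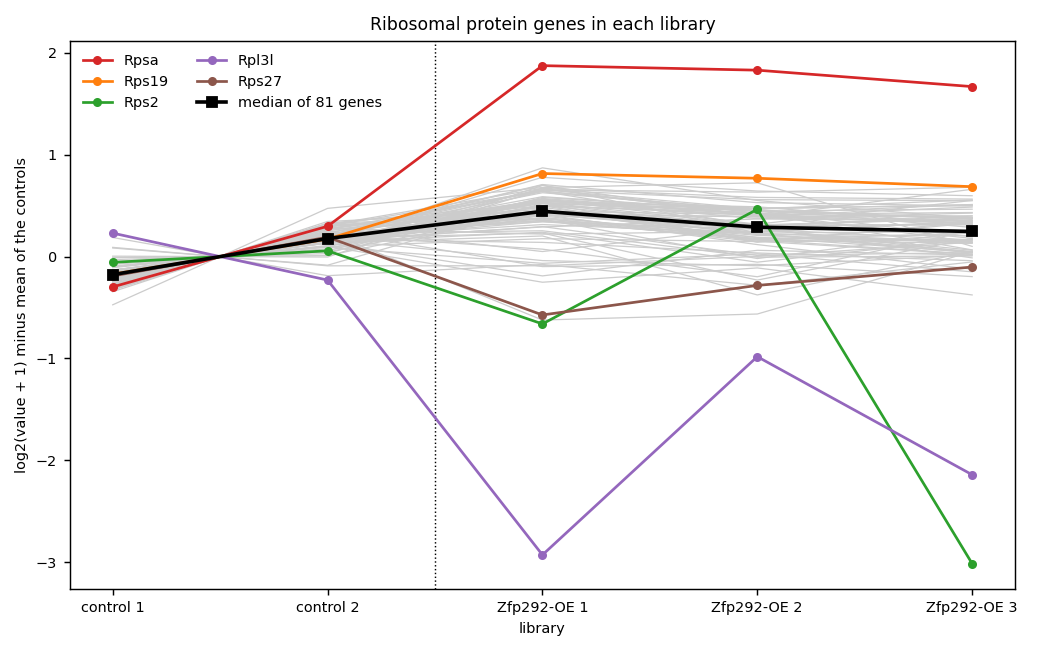
Level of each ribosomal protein gene in each library, as log2(value + 1) minus the mean of the 2 controls (vertical axis), for the 5 libraries (horizontal axis). Each line joins the values of 1 gene, with 5 genes coloured and the median of the 81 genes in black; the median stands at -0.18 and 0.18 in the controls and at 0.44, 0.29 and 0.25 in the libraries labelled Zfp292-OE, and Rpsa lies far above it in those 3.

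As a share of all reads assigned to genes, the 81 members took 0.856% and 1.11% in control libraries 1 and 2 (mean 0.981% ± 0.177, SD, n = 2). Their share was 1.17%, 1.10% and 1.12% among those labelled Zfp292-OE (mean 1.13% ± 0.0396, SD, n = 3). Control library 2 lay within the range of the libraries labelled Zfp292-OE, and control library 1 stood below all the others. Deposited values summed to 16.1% more per library labelled Zfp292-OE than per control. When all libraries were instead set to equal totals, 4 members rose, Rpsa, Rpl4 and Rps19 among them, and 0 fell, against 5.59% and 12.2% of all genes, 57 of the 81 lay above 0, and the median log2 fold change of the members was 0.12 beside -0.27 for all genes. The distance of the members' median from that of all genes was 0.39 as deposited, 0.37 in edgeR and 0.19 after quantile normalization. With equal totals it was also 0.39, but 1 factor per library shifts all genes nearly alike, so that setting could hardly change it. The scaling in edgeR is also 1 factor per library. Quantile normalization left 1 member called, against 6.91% of all genes higher and 6.47% lower.

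Rpsa, a small subunit protein also known as the laminin receptor, showed the largest fitted increase among the 81 members. It lies on chromosome 9 from 120127766 to 120132369 (RefSeq, GRCm38.p6). Its normalised reads were 6891 and 10410 in the controls (mean 8651 ± 2488, SD, n = 2) and 31053, 30108 and 26927 in the libraries labelled Zfp292-OE (mean 29363 ± 2162, SD, n = 3). The groups did not overlap, and the lowest library labelled Zfp292-OE lay well above the higher control. The log2 fold change was 1.79 (SE 0.18, adjusted p = 0.00045, limma), and the ratio of the group means was 3.39. Rpsa passed the threshold in 15 of 17 alternatives, and it was the member called after quantile normalization. Its call was lost without control library 1 (log2 fold change 1.49, adjusted p = 0.0701) and without control library 2 (2.09, adjusted p = 0.12). Of the 50-base windows of its transcript, 46.5% were found in no other annotated gene, and 27 other genes shared at least 1 window.

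In all, 4 of the 30 small subunit genes rose, among them Rpsa and Rps19. Rps19, which is needed for small subunit maturation and is mutated in Diamond-Blackfan anaemia, had 11438 and 14520 normalised reads in the controls and 22677, 21959 and 20736 in the libraries labelled Zfp292-OE. The 3 libraries labelled Zfp292-OE lay close together and above both controls (log2 fold change 0.76, SE 0.15, adjusted p = 0.0090).

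Rps6, Rps27a and Rps3, which also have known roles outside the ribosome or in signalling, did not pass the test. Rps6, the substrate of S6 kinase downstream of mTOR, had 7997 and 9711 normalised reads in the controls and 11731, 10886 and 10951 in the libraries labelled Zfp292-OE (log2 fold change 0.34, SE 0.15, adjusted p = 0.15). The groups did not overlap, and library 2 labelled Zfp292-OE was the lowest of its group. Rps27a, which is made as a fusion with ubiquitin, had 9650 and 13477 against 15937, 13255 and 13141 (0.30, SE 0.18, adjusted p = 0.27), so control library 2 lay within the other group. Rps3, which lines the messenger RNA entry and also acts in DNA repair, had 67770 and 78799 against 96844, 96138 and 96450 (0.40, SE 0.13, adjusted p = 0.066). Its libraries labelled Zfp292-OE were nearly equal and all above the controls.

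Rps2 and Rps13 showed no common direction. Rps2, a small subunit protein at the messenger RNA entry, had 5028 and 5439 normalised reads in the controls and 3307, 7214 and 647 in the libraries labelled Zfp292-OE (log2 fold change -1.07, SE 0.75, adjusted p = 0.35). The controls lay close together, and the 3 libraries of the other group lay on both sides of them. Only 21.0% of the Rps2 windows were its own, and 71 other genes shared at least 1. Rps13 had 924 and 1248 against 1129, 936 and 1284 (0.04, SE 0.28, adjusted p = 0.93), with the groups overlapping throughout.

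Among large subunit genes 7 of 45 rose, among them Rpl4, Rpl32, Rplp0, Rpl10, Rpl7 and Rpl13. Rpl4, which lines the peptide exit tunnel and had the highest mean of all members, had 66912 and 69694 normalised reads in the controls and 107582, 105881 and 109451 in the libraries labelled Zfp292-OE. Both groups were narrow and well apart (log2 fold change 0.66, SE 0.13, adjusted p = 0.0082). Rplp0, the base of the ribosomal stalk and a common reference gene in quantitative PCR, had 53542 and 57152 against 75272, 73736 and 74662. Those values were also tightly grouped without overlap (0.43, SE 0.13, adjusted p = 0.044). Rpl10, which joins the subunit late in its assembly, had 10141 and 12737 against 16571, 15820 and 16070, with no overlap (0.51, SE 0.15, adjusted p = 0.044), but only 7.87% of its windows were its own.

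In Rpl32, Rpl7 and Rpl13 both controls again lay below all libraries labelled Zfp292-OE. Rpl32 had 17092 and 22762 normalised reads in the controls and 32199, 28472 and 27868 in the other group (log2 fold change 0.58, adjusted p = 0.034). Rpl7 had 30485 and 33907 against 47335, 40083 and 47107 (0.48, adjusted p = 0.044). In Rpl7, library 2 labelled Zfp292-OE was the lowest of its group. Rpl13 had 11942 and 16365 against 22058, 19330 and 19918 (0.55, adjusted p = 0.048), with the wider gap between its controls.

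Rpl5 and Rpl11, which bind the 5S ribosomal RNA and can hold back Mdm2, the ubiquitin ligase of p53, did not pass. Rpl5 had 5977 and 8190 normalised reads in the controls and 8942, 7854 and 8200 in the libraries labelled Zfp292-OE, with overlap (log2 fold change 0.25, SE 0.18, adjusted p = 0.36). Rpl11 had 1687 and 2095 against 2300, 2429 and 2399, without overlap (0.34, SE 0.21, adjusted p = 0.30). Rpl35, among the 3 members with the lowest means, had 241 and 465 against 536, 554 and 359 (0.50, SE 0.44, adjusted p = 0.46), and its controls differed from each other more than most. Rpl29, a basic large subunit protein, had 634 and 800 against 785, 730 and 693, all within the range of the controls (0.04, SE 0.31, adjusted p = 0.94).

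The large and small subunit genes did not separate clearly. The median log2 fold change was 0.25 over the 45 large subunit genes and 0.39 over the 30 small subunit genes. Of these, 7 (15.6%) and 4 (13.3%) rose, against 10% of all genes tested. The medians between the control libraries were ordered the same way, with control library 2 higher by 0.34 in large and 0.39 in small subunit genes. With equal totals the medians were 0.03 and 0.17, and after quantile normalization 0.17 and 0.19. The difference between the subunits was not tested.

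**Figure D2:**
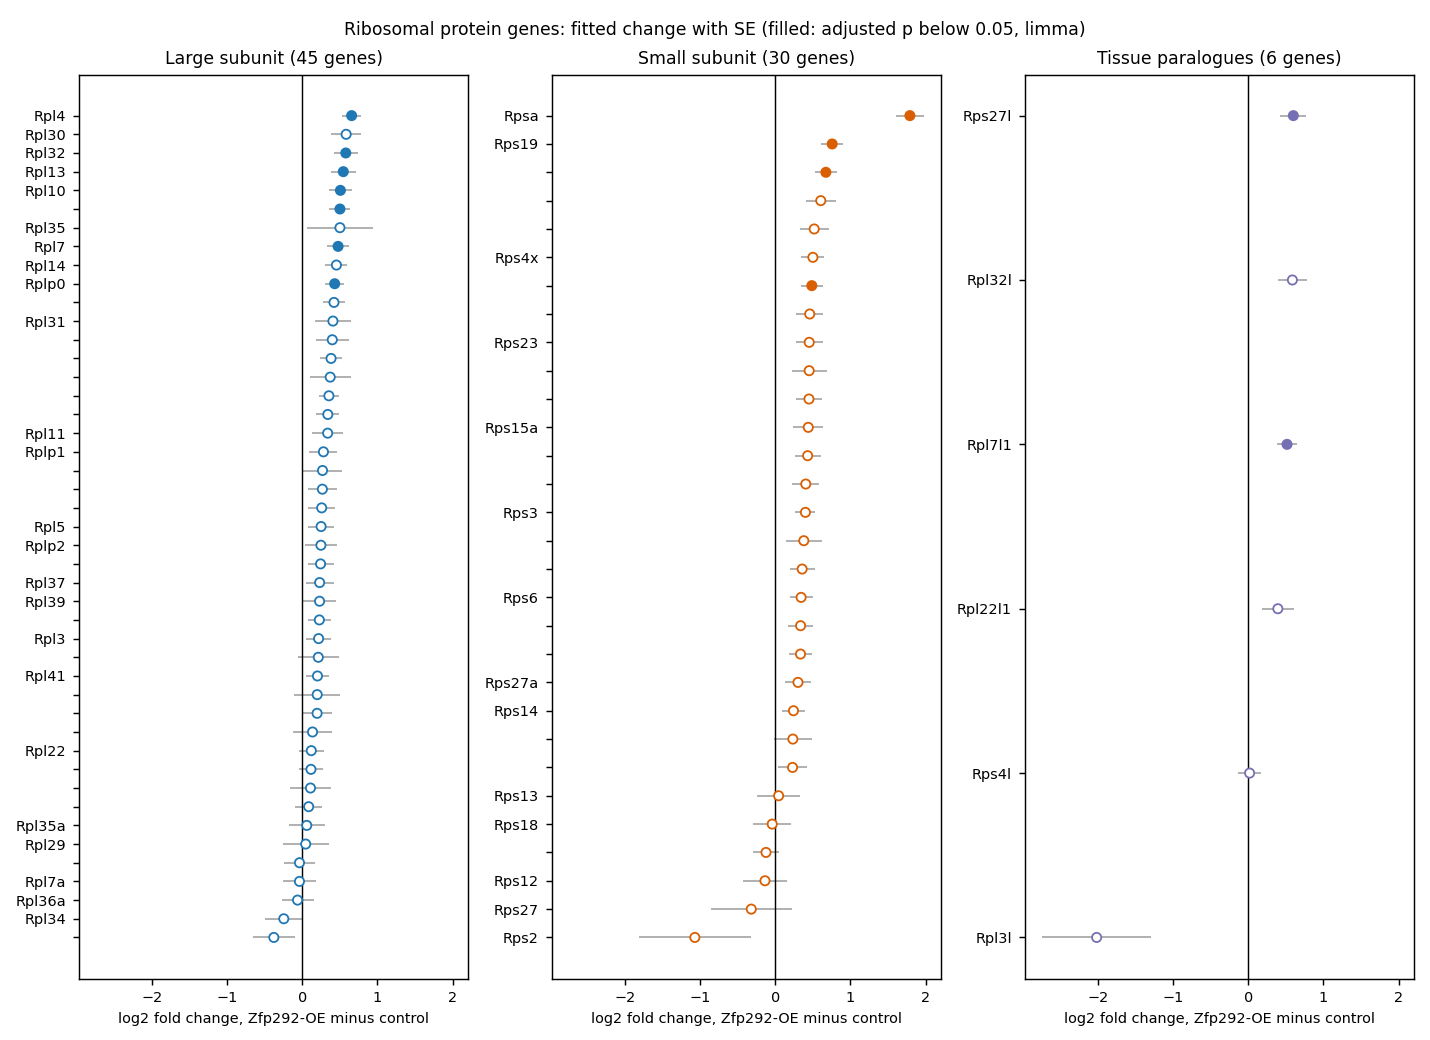
Fitted log2 fold change, libraries labelled Zfp292-OE minus control (horizontal axis), for each of the 45 large subunit genes, 30 small subunit genes and 6 paralogues (rows). Names are given for genes described in the text. Bars are standard errors and filled points have an adjusted p below 0.05 (limma); 13 points are filled, all above 0, with Rpsa at 1.79 and Rpl3l at -2.02 at the ends.

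The 13 genes that rose were all among the more abundant members. Of the 40 members above the median level, 13 (32.5%) rose and the median log2 fold change was 0.40. Of the 41 at or below the median level, 0 rose in limma or edgeR, 5 rose in DESeq2, and the median was 0.23. Over all genes tested 10% rose in limma, 8.28% in edgeR and 14.2% in DESeq2. In limma 6 (14.6%) of the 41 were at an unadjusted p below 0.05, against 32.8% of all genes in either direction. Shares over all genes of a like level were not computed. Across the 81 genes the fitted change and the log10 mean level had a Pearson r of 0.51 and a Spearman rho of 0.52; genes are not independent replicates, and the genes share the same libraries and depth. After quantile normalization the order of the medians was the opposite, at 0.13 above the median level and 0.26 at or below it.

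Levels varied widely among the members, and many shared sequence with other genes. Per kilobase of transcript, mean normalised reads ranged from 116 in Rpl3l to 109134 in Rps14, with a median of 8641. Rps27l, at 96671, and Rpl41, at 95470, were also near the top. The share of 50-base windows found in no other annotated gene ranged from 1.35% in Rps27 to 100% in Rpl3l and had a median of 48.2%. The median level per kilobase was 9949 for the 39 members with at least 50% of windows of their own and 4848 for the 42 with fewer. In the first set 9 (23.1%) rose, with a median log2 fold change of 0.38. In the second 4 (9.52%) rose, with a median of 0.27. Of all genes tested 10% rose. How reads that match several genes were assigned is not given in the sources used here.

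For some members most reads stood under a named copy, a retrogene or pseudogene. Rps18 had 1669 and 2008 normalised reads in the controls and 2106, 1410 and 1896 in the libraries labelled Zfp292-OE, while Rps18-ps4 had 29712 and 38005 against 52080, 44621 and 46385. On average 95.9% of the sum of both stood under the copy. The log2 fold change was -0.04 for Rps18 (adjusted p = 0.93) and 0.50 for Rps18-ps4 (adjusted p = 0.048), and for their sum it was 0.48 (adjusted p = 0.057), so the level and the change read for Rps18 depended on where its reads were listed.

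The share under the copies varied widely among the other parents. The copy held 80.2% for Rpl37 (Rpl37rt), 53.8% for Rpl14 (Rpl14-ps1), 50.8% for Rps23 (Rps23rg1), 32.3% for Rpl31 (Rpl31-ps12) and 20.4% for Rps15a (Rps15a-ps6 and Rps15a-ps4). It held 11.7% for Rpl32 (Rpl32l), 6.75% for Rps27 (Rps27rt), 1.93% for Rps19 (Rps19-ps3) and 0% for Rplp2 (Rplp2-ps1). For Rpl14 the log2 fold change was 0.45 alone (adjusted p = 0.060) and 0.47 with its copy (adjusted p = 0.048). With copies added to all these parents, 14 members rose, the 13 above and Rpl14. Among the 13, only Rpl32 and Rps19 had a copy added, so the fit could hardly change the other calls. The copies were chosen after the data were seen.

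**Figure D3:**
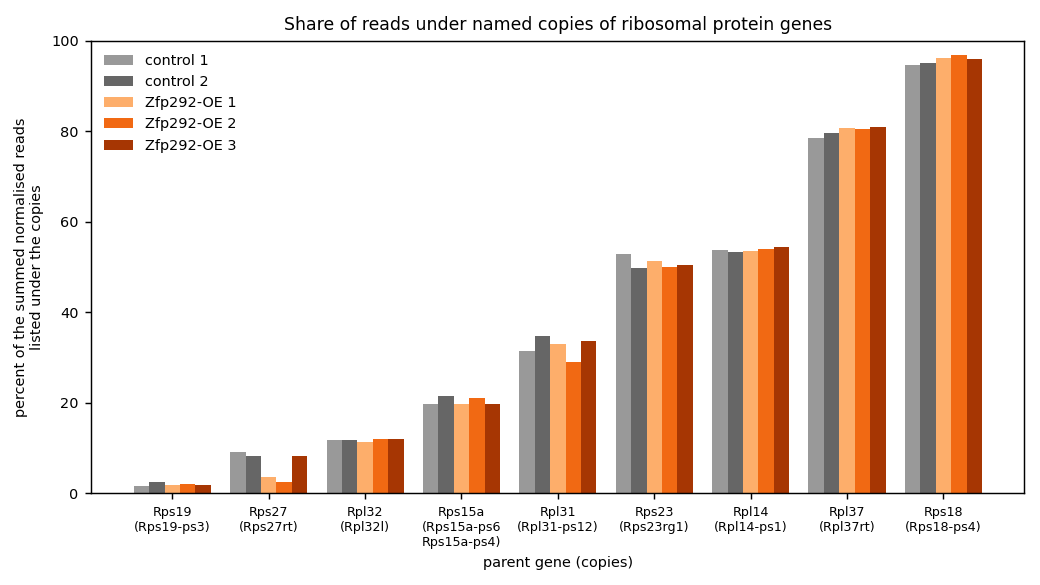
Percent of the summed normalised reads of a parent gene and its named copies that is listed under the copies (vertical axis, from 0), for each parent (horizontal axis) and each of the 5 libraries (bars). The share for Rps18 averages 95.9% and that for Rps19 1.93%. On this scale the 5 libraries of a parent lie close together. For Rps27 they range from 2.41% to 9.15%, on 4 to 25 reads under its copy.

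The paralogues behaved differently from one another. Of the 6 tested, 2 (33.3%) rose, Rps27l and Rpl7l1, and 0 fell, against 10% and 7.38% of all genes tested. At an unadjusted p below 0.05, 1, Rpl3l, was lower. The median log2 fold change of the 6 was 0.45. Rps27l, a paralogue of Rps27 that is a known target of p53, had 33004 and 40434 normalised reads in the controls and 66813, 53489 and 47454 in the libraries labelled Zfp292-OE. The 3 libraries lay above both controls but were spread out (log2 fold change 0.60, SE 0.17, adjusted p = 0.040). Rps27 itself had 162 and 212 against 124, 152 and 173 (-0.32, SE 0.54, adjusted p = 0.72), so nearly all reads of the pair stood under Rps27l. The first 90 coding bases of the pair are shown because they differ at many bases, while Rpl32 and Rpl32l hardly differ. Rpl32l has no coding bases annotated in GENCODE, so the stretch aligned to the first 90 coding bases of Rpl32 is printed. Capitals mark the bases that differ within a pair (GENCODE vM21, GRCm38).
Rps27: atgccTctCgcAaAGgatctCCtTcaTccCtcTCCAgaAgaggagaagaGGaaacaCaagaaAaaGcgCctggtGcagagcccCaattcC
Rps27l: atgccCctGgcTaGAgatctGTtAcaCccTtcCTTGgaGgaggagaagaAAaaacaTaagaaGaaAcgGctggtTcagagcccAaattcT
Rpl32: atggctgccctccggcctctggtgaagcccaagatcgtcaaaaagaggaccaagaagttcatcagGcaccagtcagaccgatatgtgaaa
Rpl32l: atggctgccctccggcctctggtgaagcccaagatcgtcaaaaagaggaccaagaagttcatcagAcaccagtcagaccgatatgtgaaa

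In these stretches Rps27 and Rps27l differ at 24 bases and Rpl32 and Rpl32l at 1. Over the aligned coding bases of Rps27 and Rps27l the identity is 76.2%. For the second pair it is 97.5%, over 398 of the 405 coding bases of Rpl32 aligned to the Rpl32l transcript. Of the 50-base windows, 77.6% of those of Rps27l and 1.35% of those of Rps27 were found in no other annotated gene. Rpl32l, which is protein coding in RefSeq but a processed pseudogene in GENCODE, followed its parent closely. Its normalised reads were 12.8% to 13.7% of those of Rpl32 in all 5 libraries, and its log2 fold change was 0.59 (SE 0.20, adjusted p = 0.066) beside 0.58 for Rpl32.

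Rpl7l1, a paralogue of Rpl7, had 20643 and 18362 normalised reads in the controls and 27954, 26951 and 28618 in the libraries labelled Zfp292-OE. It was one of the few members in which control library 1 was the higher control, and the groups did not overlap (log2 fold change 0.52, SE 0.13, adjusted p = 0.027). The log2 ratio of Rpl7l1 to Rpl7 averaged -0.72 in the controls and -0.68 in the libraries labelled Zfp292-OE. Rpl3l, the muscle paralogue of Rpl3, had 324 and 235 against 35.4, 139 and 61.7 (log2 fold change -2.02, SE 0.72, adjusted p = 0.082). Every library labelled Zfp292-OE lay below both controls, and without library 2 of that group the adjusted p was 0.045 (log2 fold change -2.53). Rpl3 had 4161 and 4763 against 5029, 4931 and 5583 (0.22, SE 0.17, adjusted p = 0.40), so the log2 ratio of Rpl3l to Rpl3 averaged -4.01 in the controls and -6.24 in the other group.

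Rpl22l1, a paralogue of Rpl22, had 2999 and 3951 normalised reads in the controls and 5603, 4040 and 4085 in the libraries labelled Zfp292-OE (log2 fold change 0.39, SE 0.21, adjusted p = 0.24). Libraries 2 and 3 of that group lay only just above control library 2, and for Rpl22 the fitted value was 0.12 (SE 0.17, adjusted p = 0.66). Rps4l, annotated in RefSeq as a transcribed pseudogene related to Rps4x, had 8328 and 7345 against 7347, 7833 and 8624 (0.02, SE 0.16, adjusted p = 0.95), with full overlap. Rps4x, the X-linked small subunit gene, had 20148 and 26562 against 34774, 31537 and 31939 (0.50, SE 0.15, adjusted p = 0.0502), without overlap and just past the threshold on the side of no call. Rpl36a and Rpl36al had log2 fold changes of -0.06 and 0.05 (adjusted p = 0.87 and 0.96). For Rpl39, whose germ line paralogue was at 0 reads, the fitted value was 0.23 (SE 0.22, adjusted p = 0.50).

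**Figure D4:**
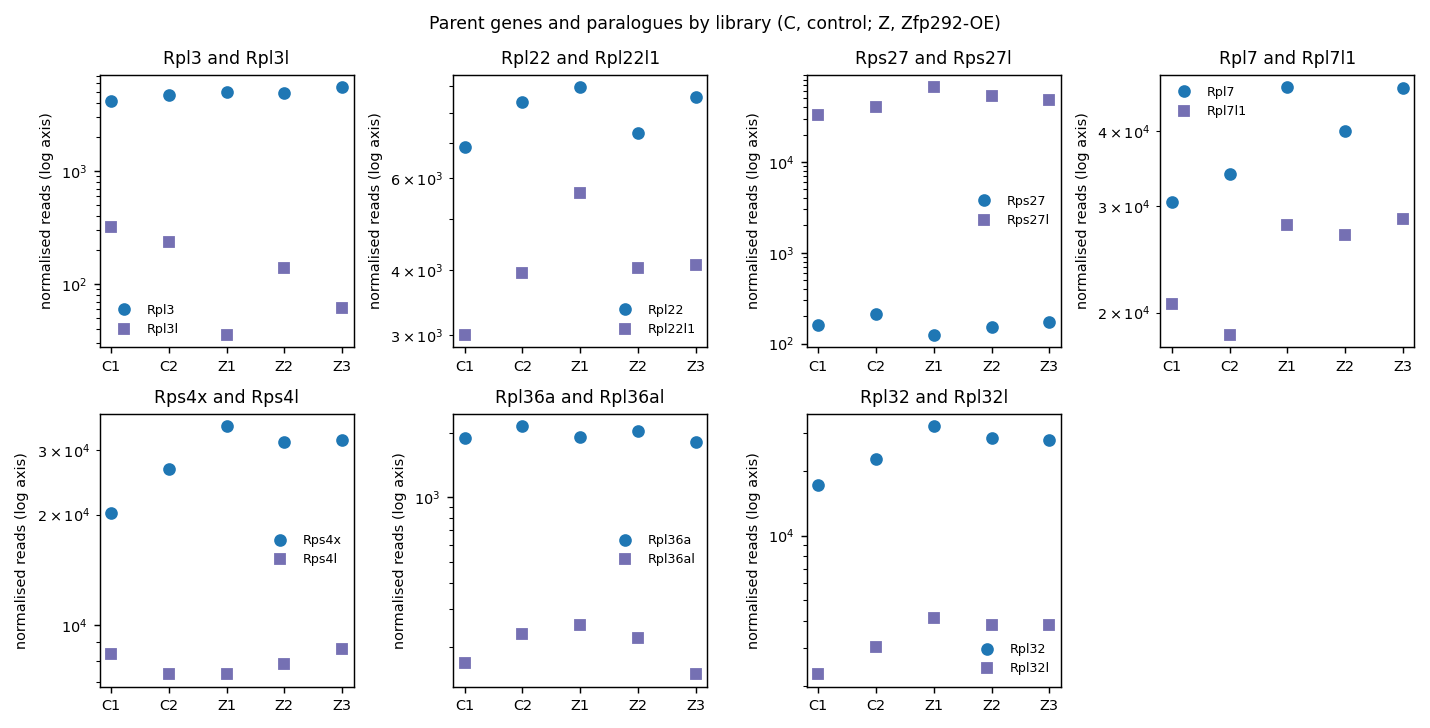
Normalised reads (vertical axes, log scale) of parent genes (circles) and their paralogues (squares) in the 2 control libraries (C1, C2) and the 3 libraries labelled Zfp292-OE (Z1 to Z3). Rps27l stands far above Rps27 in every library, Rpl32l keeps 12.8% to 13.7% of Rpl32, and Rpl3l is lower in Z1 to Z3 than in C1 and C2.

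Start sites were examined because of the pyrimidine motif described above. RefSeq promoter windows of GRCm38.p6, with 250 bases before and 50 after the annotated start, were matched by gene identifier for 63 of the 84 genes. This gave 75 windows. Where a gene had several windows, the one furthest upstream is printed. The 60 bases around the start (40 before, 20 after) are printed for the 4 matched members with the smallest p (Rpsa, Rpl4, Rps19 and Rpl7l1) and the 4 with the largest (Rpl35a, Rpl7a, Rps18 and Rps13). Capitals mark the longest run of at least 7 C or T.
Rpsa: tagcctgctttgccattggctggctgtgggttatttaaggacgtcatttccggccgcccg
Rpl4: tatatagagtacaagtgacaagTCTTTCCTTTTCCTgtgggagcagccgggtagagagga
Rps19: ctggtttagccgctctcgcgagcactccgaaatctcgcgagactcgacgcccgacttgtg
Rpl7l1: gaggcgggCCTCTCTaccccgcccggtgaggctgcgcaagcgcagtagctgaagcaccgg
Rpl35a: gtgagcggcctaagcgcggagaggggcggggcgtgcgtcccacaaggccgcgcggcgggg
Rpl7a: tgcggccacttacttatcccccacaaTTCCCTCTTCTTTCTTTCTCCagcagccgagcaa
Rps18: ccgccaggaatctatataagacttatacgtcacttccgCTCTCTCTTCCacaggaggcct
Rps13: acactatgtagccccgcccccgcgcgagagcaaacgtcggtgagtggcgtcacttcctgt

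These windows lie at chr9:120127726-120127785 (Rpsa, plus strand), chr9:64173347-64173406 (Rpl4, plus), chr7:24884552-24884611 (Rps19, plus), chr17:46782637-46782696 (Rpl7l1, minus), chr16:33056413-33056472 (Rpl35a, plus), chr2:26910767-26910826 (Rpl7a, plus), chr17:33955646-33955705 (Rps18, minus) and chr7:116334171-116334230 (Rps13, minus). A run stood in 2 of the 4 members with the smallest p and in 2 of the 4 with the largest. In Rpl7a and Rps18 the run spans the annotated start, and neither gene passed the test.

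Across all member windows, a run of at least 7 C or T within 30 bases of the start on the sense strand was found in 61.3% of 75, against 33.8% of all 32851 windows. Among the 11 windows of members that rose the share was 54.5%, and among 9 windows of paralogues 44.4%. The same run on the other strand, read as A or G, was found in 24.0% of member windows and 37.7% of all windows. The motif CCGGAAG, searched on both strands of the 300 bases, stood in 34.7% of member windows against 8.86% of all. Its reverse complement begins with 5 pyrimidines and so can form part of a run. The E-box CACGTG, on both strands, stood in 10.7% against 7.15%, and TATAAA in 10.7% against 13.6%. A match describes letters in the window and is not a binding site.

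Ribosomal and ribosome-bound proteins whose symbols fall outside the rule gave 0 calls among 5 in limma or edgeR and 2, both higher, in DESeq2. Over all genes tested 10% rose in limma, 8.28% in edgeR and 14.2% in DESeq2. In limma 3 of the 5 were at an unadjusted p below 0.05, against 32.8% of all genes. Fau, a small subunit protein made as a fusion, had 34722 and 42237 normalised reads in the controls and 54337, 54485 and 45773 in the libraries labelled Zfp292-OE (log2 fold change 0.42, SE 0.15, adjusted p = 0.080). Rack1, a scaffold on the small subunit, had 56505 and 68481 against 84811, 78886 and 80936 (0.39, SE 0.14, adjusted p = 0.083). In both genes the groups did not overlap. Rps3a1 had 13448 and 15608 against 16223, 3077 and 11730, with library 2 labelled Zfp292-OE far below the rest (-0.79, SE 0.54, adjusted p = 0.34).

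Genes that make or serve ribosomes also lay higher, with medians between the controls nearer 0 than that of the ribosomal protein genes. Of 65 ribosome biogenesis genes, 19 (29.2%) rose and 0 fell, against 10% and 7.38% of all genes tested. The median log2 fold change was 0.43 and the median between the controls -0.08. No member of this list was lower at an unadjusted p below 0.05, and edgeR and DESeq2 called 0 lower. Dkc1, the pseudouridine synthase of ribosomal RNA, had 6423 and 6153 normalised reads in the controls and 16099, 15369 and 14355 in the libraries labelled Zfp292-OE (log2 fold change 1.28, SE 0.14, adjusted p = 0.00059). Its controls were nearly equal and far below the other group. Nop58, a core protein of box C/D small nucleolar particles, had 13419 and 12313 against 24989, 24063 and 22375 (0.89, SE 0.14, adjusted p = 0.0027). Rrp15, which acts in large subunit maturation, changed by 1.08 on the log2 scale (adjusted p = 0.0013), and Bccip, which acts in large subunit maturation and DNA repair, by 0.88 (adjusted p = 0.0030).

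Of 39 translation factors, 17 (43.6%) rose and 0 fell, against 10% and 7.38% of all genes tested. At an unadjusted p below 0.05, 1 was lower, and edgeR called 0 lower and DESeq2 1. The median log2 fold change was 0.41 and that between the controls 0.02. Eef1d, an elongation factor exchange subunit, had 6351 and 8086 normalised reads in the controls and 14421, 14520 and 13176 in the libraries labelled Zfp292-OE (log2 fold change 0.97, SE 0.16, adjusted p = 0.0036). Eif2s1, the alpha subunit of initiation factor eIF2, had 31483 and 23492 against 56487, 51599 and 50421 (0.96, SE 0.16, adjusted p = 0.0036). In both genes the groups lay well apart. Eif3m and Eif5 had log2 fold changes of 0.74 and 0.70 (adjusted p = 0.0070 for each).

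Regulators of mTOR and of the pyrimidine motif were mixed. Of 21 tested, 4 (19%) rose and 0 fell, against 10% and 7.38% of all genes tested. There were 0 lower at an unadjusted p below 0.05 and 0 lower in edgeR and DESeq2. The median log2 fold change was 0.03, with 12 above 0 and 9 below. In 5 every library labelled Zfp292-OE lay above both controls, against 24.3% of all genes. In 4 every one lay below, against 25.7%. The 4 genes named here are those with the smallest p. Eif4ebp1, a repressor of cap-dependent initiation that mTOR inactivates, had 4125 and 4948 normalised reads in the controls and 10218, 8555 and 9091 in the libraries labelled Zfp292-OE (1.04, SE 0.17, adjusted p = 0.0033). Cnbp, which binds pyrimidine-motif messenger RNAs, had 191604 and 147705 against 318656, 316713 and 296653 (0.88, SE 0.16, adjusted p = 0.0056). Both showed a clear gap between the groups. Rheb, the small GTPase that activates mTOR, rose by 0.71 on the log2 scale (adjusted p = 0.013), and Tbc1d7, a subunit of the TSC complex that restrains Rheb, by 0.51 (adjusted p = 0.039), called in 8 of 17 alternatives.

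Mitochondrial ribosomal proteins, which build the separate ribosome of that organelle, shifted by a like amount. Of 77 tested, 22 (28.6%) rose and 0 fell, against 10% and 7.38% of all genes tested. At an unadjusted p below 0.05, 1 was lower, and edgeR called 0 lower and DESeq2 1. The median log2 fold change was 0.41 and that between the controls 0.06. Mrps9, of the small subunit, had 6340 and 7427 normalised reads in the controls and 12967, 12171 and 11815 in the libraries labelled Zfp292-OE (0.84, SE 0.15, adjusted p = 0.0055). Mrpl28, of the large subunit, had 39462 and 39686 against 72505, 69105 and 58435 (0.75, SE 0.14, adjusted p = 0.0074). The groups were apart in both, with library 3 labelled Zfp292-OE the lowest of its group. Mrpl35 and Mrpl40 had log2 fold changes of 0.82 and 0.77 (adjusted p = 0.0055 and 0.0086). The counts of all 4 lists fell to 0 without either control library, when limma called 0 genes in all, with 4402 genes at an unadjusted p below 0.05 without control library 1 and 3529 without control library 2.

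**Figure D5:**
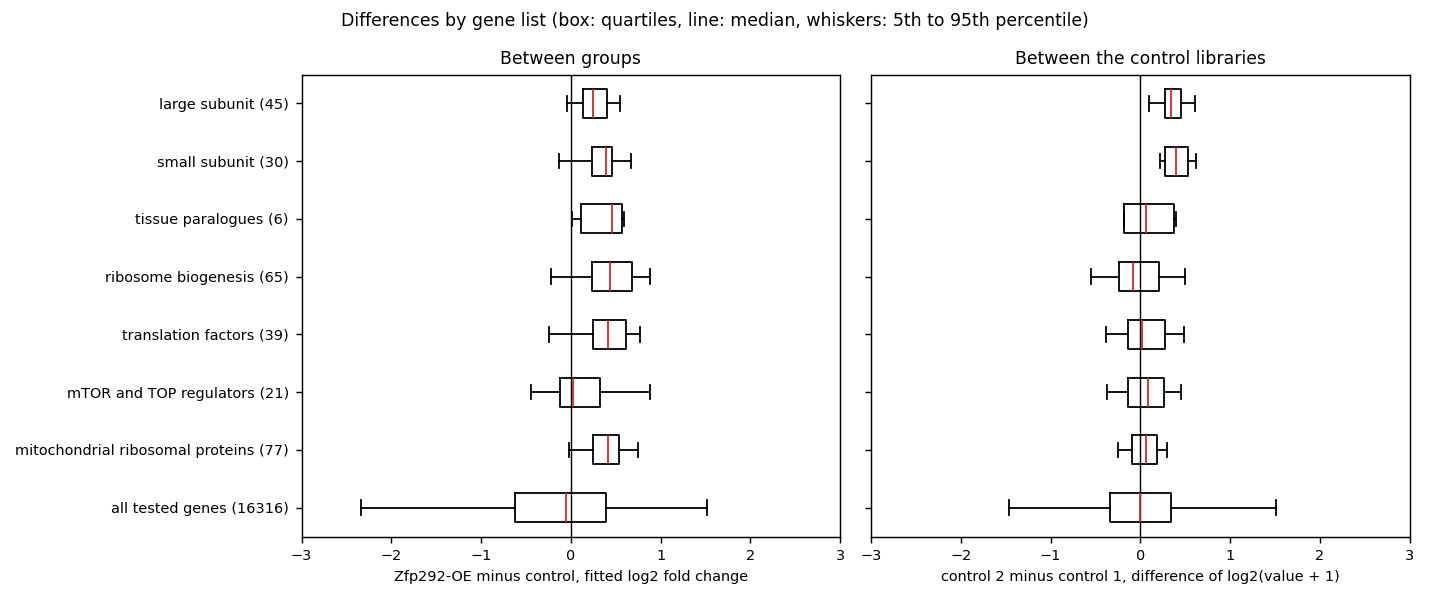
Log2 difference of the genes of each list (rows, number of genes in brackets) between groups (left; libraries labelled Zfp292-OE minus control) and between the controls (right; control library 2 minus control library 1). Boxes give the quartiles, lines the medians and whiskers the 5th to 95th percentile. Medians (left and right) are 0.25 and 0.34 for large subunit genes and 0.39 and 0.39 for small subunit genes. They are 0.45 and 0.06 for the paralogues, and 0.43 and -0.08 for the biogenesis genes.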

How the data were processed

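The authors deposited a table of normalised signal per gene for 5 libraries, with 0 columns of other samples. The values are read counts divided by 1 factor per library: 100% were whole multiples of the smallest step, within a tolerance of 1e-06 of a read, and whole reads were recovered from them. A read was worth 0.770 to 1.14. Per the submitters' processing notes the genome was GRCm38 (mm10). For aligner, counter, annotation, strand setting and scaling, the methods are not given in sources used here.

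Genes with a mean of at least 10 were tested with limma 3.58.1 (trend; R 4.3.3) on log2(value + 1), with Benjamini-Hochberg adjustment over all 16316 and a threshold of 0.05; fold changes are on that log2 scale. Alternatives were DESeq2 1.42.0 and edgeR 4.0.16 (quasi-likelihood), both run on recovered reads, TMM scaling, equal totals, quantile normalization, pseudocounts of 0.5 and 10, other filters, array weights, each library left out once, and a replicate block. The scripts were tested on simulated data. Coordinates and promoters come from RefSeq (GRCm38.p6), and transcripts, windows and coding bases from GENCODE vM21. Plots were made with Python 3.11.15, pandas 2.3.3 and matplotlib 3.10.9.

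The members and lists were chosen with earlier results of these data known. Named were every member past the threshold, the paralogue pairs, the 3 members with the highest and lowest means and the smallest and largest adjusted p, members with known further roles, the genes outside the symbol rule, and 4 genes with the smallest p per pathway list. Rpl32l as a paralogue, the copies with their added fit and split by own windows, and other members named for an extreme or an exception (such as Rps2, Rps18, Rpl34 and Rps14) were chosen after their values were seen. A few genes that meet these criteria are left out of the text.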

Additional observations from a re-analysis of the deposited data

How the results depend on the processing

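No direction of a called value reversed under the alternatives run. Of all genes tested, 10% rose in limma, 14.2% in DESeq2, 8.28% in edgeR, 5.59% with equal totals and 6.91% after quantile normalization. In either direction limma called 2836 genes, 2756 with TMM scaling, 2397 of 20876 with no filter and 2498 with the replicate block. Without 1 library labelled Zfp292-OE it called 1628 to 2324. In edgeR and with equal totals the members rose at a rate near that of all genes. The number of members that rose, 13, became 23 in DESeq2, 8 with TMM scaling, 7 in edgeR, 4 with equal totals, 5 with no filter and 1 after quantile normalization, and it was 0 to 5 when single libraries were left out; the number that fell was 0 to 1. Equal numbers do not mark pairs in the labels, and same-numbered libraries did not deviate together (r = -0.04 and -0.03); with the replicate block 5 members, 10 translation factors and 13 mitochondrial ribosomal protein genes rose. In DESeq2 29 biogenesis, 40 mitochondrial ribosomal and 2 outside-rule genes rose, and 1 translation factor and 1 mitochondrial gene fell. With equal totals 11 biogenesis genes, 8 translation factors and 5 mitochondrial ribosomal genes rose, and 1 translation factor and 1 mitochondrial gene fell. After quantile normalization 3 translation factors, 2 mTOR regulators and 4 mitochondrial ribosomal genes rose and 1 mitochondrial gene fell. With single libraries left out, 0 to 17 biogenesis genes, 0 to 12 translation factors, 0 to 4 mTOR regulators and 0 to 16 mitochondrial ribosomal genes rose. The median log2 fold change with equal totals was 0.12 for all members, 0.034 for large subunit, 0.17 for small subunit and 0.24 for paralogue genes; after quantile normalization it was 0.19 for small subunit and 0.24 for paralogue genes. Leaving out single libraries gave 0.11 to 0.51 for all members, 0.040 to 0.48 for large subunit, 0.17 to 0.58 for small subunit and 0.29 to 0.51 for paralogue genes. Without a control the remaining one is assumed to vary like the other group. The cause of these differences was not tested. There are only 2 controls, and 1 lies below the other in 76 of 81 members; the effect of depth on the counts was not tested.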
